A study of Rattus norvegicus with 8 samples.

Results

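The genes described here are 8 effector and feedback genes that neurons switch on when they are active: Arc, Npas4, Ier2, Btg2, Dusp1, Dusp6, Nptx2 and Ptgs2. They were taken by symbol from tables of 17168 genes, and all 8 were present and passed the low-count filter. RNA was sequenced from homogenate of the medial prefrontal cortex, a region involved in withholding actions, of male Sprague-Dawley rats. Rats with high motor impulsivity (HI, 4 libraries) were compared with rats with low motor impulsivity (LI, 4 libraries). Per the labels, the score was the number of premature responses made in the 1-CSRT task, in which a rat must hold back a response until a cue appears. HI rats fell in its top quartile, LI rats in its bottom quartile. No drug, genotype or age is named in the labels, and nothing in them says that each library is a separate animal, so p-values measure the spread between these libraries, which may be technical. As the tissue was a homogenate, fewer cells of a type and less RNA per cell cannot be told apart.

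Synaptic activity raises calcium in the neuron and starts kinase cascades, among them the ERK pathway, that act on transcription factors such as CREB already present in the nucleus. A first wave of transcripts follows within minutes. Part of that wave encodes further transcription factors, and part encodes proteins that act directly at synapses, in RNA decay or in prostaglandin synthesis, or that switch the kinase cascade off again. In cortex, Arc and Npas4 are widely used to mark recently active excitatory neurons, and Ptgs2 is unusual among prostaglandin enzymes in being induced in excitatory neurons by activity.

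Promoter sequence from RefSeq (build GRCr8) was matched by symbol for 7 of the genes: Npas4, Ier2, Btg2, Dusp1, Dusp6, Nptx2 and Ptgs2. The windows searched were the 250 bases before the start site that the RefSeq promoter table uses. For Npas4 and Dusp6 that site lies within the gene's annotated span, which also covers other transcripts, so for these genes the window is not upstream of the whole gene. In these windows, 3 of the 7 genes held the cyclic AMP response element TGACGTCA, the palindromic site that CREB binds. The same letters were found in 2.53% of the 11459 promoters of genes listed in the tables and in 1.59% of all 33469 promoters. The 3 stretches are shown because they carry this shared site, in capitals, with its first base 201 bases before that start in Btg2, 124 in Dusp1 and 66 in Ier2. They lie at chr13:48087691-48087940 (minus strand), chr10:17184603-17184852 (plus strand) and chr19:40399123-40399372 (plus strand).
Btg2: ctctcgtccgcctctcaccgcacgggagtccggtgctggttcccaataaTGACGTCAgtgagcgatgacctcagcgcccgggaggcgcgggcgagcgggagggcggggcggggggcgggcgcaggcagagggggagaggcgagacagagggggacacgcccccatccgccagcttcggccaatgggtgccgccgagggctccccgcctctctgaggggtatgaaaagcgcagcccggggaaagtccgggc
Dusp1: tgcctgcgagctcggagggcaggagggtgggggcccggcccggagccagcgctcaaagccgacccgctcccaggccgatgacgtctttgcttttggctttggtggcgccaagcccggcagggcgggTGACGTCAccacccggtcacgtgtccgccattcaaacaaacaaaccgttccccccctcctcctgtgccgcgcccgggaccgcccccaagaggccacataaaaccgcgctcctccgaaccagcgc
Ier2: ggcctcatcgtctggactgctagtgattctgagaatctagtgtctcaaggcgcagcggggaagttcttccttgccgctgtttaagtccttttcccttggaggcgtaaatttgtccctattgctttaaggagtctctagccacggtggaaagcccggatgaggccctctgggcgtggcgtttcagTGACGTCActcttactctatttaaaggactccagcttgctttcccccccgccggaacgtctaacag
The shorter core TGACG, searched on both strands and contained in each TGACGTCA, occurred in 4 of the 7, those 3 and Nptx2, against 25% of the promoters of listed genes. The E-box CACGTG occurred in 2 of the 7, Dusp1 and Ptgs2, against 7.23%. The CArG box, which serum response factor binds, occurred in 0 of the 7 in this window, against 1.2%, and TATAAA in 0 of the 7, against 9.39%. These matches describe letters in a window and do not show binding.

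Total counts were between 7354416 and 9476656 per library. Ribosomal RNA took between 0.406% and 25.5% of the counts, most in HI2, while every other library had at most 6.42%. The share was least in HI4 and LI3. HI4 and LI3 also stood apart on the first principal component of log2 CPM, at 51.0 and 34.6. The other libraries had values between -25.9 and 2.05 on this component. LI2 carried the highest summed level of 5 oligodendrocyte markers, 5902 CPM, against 1765 to 1937 CPM in HI and 1503 to 3136 CPM in the other LI libraries. Markers of excitatory cortical neurons were present in every library, at a summed level of 1358 to 1965 CPM in HI and 1421 to 1661 CPM in LI. CPM here is the count scaled by the library size after TMM normalization.

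All 8 genes had a higher fitted level in HI than in LI, by 0.15 to 0.60 on the log2 scale, and none of these differences passed the test. The largest were in Arc and Dusp1 and the smallest in Npas4 and Nptx2. A log2 fold change above 0 was found in 48.5% of the 11631 genes tested, and the median was 0.40 for the 8 genes and -0.01 for all genes. edgeR's quasi-likelihood test, at an adjusted p threshold of 0.1, called 0 of the 8 genes and 0 of 11631 genes (0%). At an unadjusted p under 0.05, 0 of the 8 were higher in HI, against 3.07% of all genes, and 484 genes in all passed that level in either direction. In 0 of the 8 did every HI library lie above every LI library, against 2.31% of all genes. The 8 genes were chosen with earlier results of these data known, so their shared direction is not independent evidence.

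Arc encodes a synaptic protein that drives removal of AMPA-type glutamate receptors from active synapses and was the most abundant of the 8. It stood at 299.6, 228, 272 and 149 CPM in HI1 to HI4, against 120, 106, 113 and 286 CPM in LI1 to LI4. LI4 was as high as the upper HI libraries, and every HI library exceeded the other LI libraries. Mean Arc was 237 ± 65.5 CPM over the HI libraries, against 156 ± 86.5 CPM over the LI libraries (SD, n = 4 per group). The log2 fold change was 0.60 ± 0.34 (SE, 95% interval -0.15 to 1.35), and it was 1.06 ± 0.22 without LI4 and 0.46 without LI2.

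Nptx2 encodes a secreted pentraxin that gathers AMPA receptors at synapses onto interneurons. It stood at 55.0, 73.2, 66.7 and 35.7 CPM in HI1 to HI4, against 60.4, 61.1, 34.5 and 52.1 CPM in LI1 to LI4. HI4 and LI3 were low and the other libraries of both groups were interleaved. Mean Nptx2 was 57.7 ± 16.5 CPM over the HI libraries, against 52.0 ± 12.4 CPM over the LI libraries (SD, n = 4 per group). HI minus LI was 0.15 ± 0.24 on the log2 scale (SE, 95% interval -0.39 to 0.69), the smallest of the 8. This difference was 0.32 without HI4 and -0.00475 without LI3, so a single library decided its sign.

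Npas4 encodes an activity-dependent transcription factor that shapes inhibitory synapses. It stood at 46.4, 32.1, 27.5 and 40.3 CPM in HI1 to HI4, against 22.2, 16.8, 34.8 and 53.8 CPM in LI1 to LI4. The highest and the lowest values were both in LI, with the HI libraries between them. Mean Npas4 was 36.6 ± 8.44 CPM over the HI libraries, against 31.9 ± 16.5 CPM over the LI libraries (SD, n = 4 per group). On the log2 scale HI exceeded LI by 0.20 ± 0.33 (SE, 95% interval -0.54 to 0.93). It was 0.57 without LI4 and -0.01 without LI2, so its sign also rested on 1 library.

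Ier2 encodes a nuclear immediate early protein. It had the lowest level of the 8, at 18.2, 12.4, 15.8 and 7.85 CPM in HI1 to HI4, against 8.12, 9.59, 7.78 and 16.97 CPM in LI1 to LI4. HI4 fell among the low LI libraries and LI4 among the high HI libraries. Its 59 reads in HI4 were the fewest of any of the 8 genes in any library, with an exact Poisson 95% interval of 44.9 to 76.1 reads that covers counting error only. The log2 fold change was 0.36 ± 0.32 (SE, 95% interval -0.35 to 1.06), and it was 0.67 without LI4 and 0.18 without HI1.

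Btg2 encodes an antiproliferative protein that recruits the CCR4-NOT complex to shorten poly(A) tails. It stood at 71.4, 35.2, 36.7 and 52.4 CPM in HI1 to HI4, against 28.4, 23.8, 36.1 and 47.3 CPM in LI1 to LI4. HI1 was the highest library, LI1 and LI2 were the lowest, and the rest overlapped. Mean Btg2 was 49.0 ± 16.9 CPM over the HI libraries, against 33.9 ± 10.3 CPM over the LI libraries (SD, n = 4 per group). HI minus LI in log2 units was 0.53 ± 0.27 (SE, 95% interval -0.07 to 1.13), and it was 0.29 without HI1 and 0.73 without LI4.

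Dusp1 encodes a nuclear phosphatase that dephosphorylates the MAP kinases p38, JNK and ERK. It stood at 113, 60.3, 97.5 and 51.9 CPM in HI1 to HI4, against 49.6, 39.6, 46.6 and 79.9 CPM in LI1 to LI4. Every HI library exceeded LI1, LI2 and LI3, while LI4 exceeded HI2 and HI4. Mean Dusp1 was 80.8 ± 29.4 CPM over the HI libraries, against 53.9 ± 17.8 CPM over the LI libraries (SD, n = 4 per group). Its log2 fold change was 0.58 ± 0.29 (SE, 95% interval -0.05 to 1.22), and it was 0.38 without HI1 and 0.83 without LI4.

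Dusp6 encodes a cytoplasmic phosphatase selective for ERK. It stood at 54.4, 38.4, 49.5 and 27.2 CPM in HI1 to HI4, against 40.7, 27.4, 24.1 and 39.0 CPM in LI1 to LI4. HI1 and HI3 were highest, and HI4 lay with the lowest LI libraries. Mean Dusp6 was 42.3 ± 12.1 CPM over the HI libraries, against 32.8 ± 8.27 CPM over the LI libraries (SD, n = 4 per group). Its log2 fold change was 0.37 ± 0.24 (SE, 95% interval -0.17 to 0.91), with 0.22 without HI1 and 0.53 without HI4.

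Ptgs2 encodes cyclooxygenase-2, the inducible enzyme of prostaglandin synthesis. It stood at 27.6, 20.7, 28.9 and 31.0 CPM in HI1 to HI4, against 21.03, 14.6, 25.7 and 19.4 CPM in LI1 to LI4. HI1, HI3 and HI4 lay above all LI libraries, and HI2 lay below LI1 and LI3. Mean Ptgs2 was 27.0 ± 4.48 CPM over the HI libraries, against 20.2 ± 4.55 CPM over the LI libraries (SD, n = 4 per group). HI exceeded LI by a log2 fold change of 0.43 ± 0.19 (SE, 95% interval -0.00155 to 0.85), and it was 0.30 without LI2 and 0.56 without LI3. Ptgs2 had the smallest unadjusted p of the 8, 0.0507 (rank 490 of 11631), and the adjusted p was 1.00 in edgeR's quasi-likelihood test, as it was for each of the 8.

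**Figure D1:**
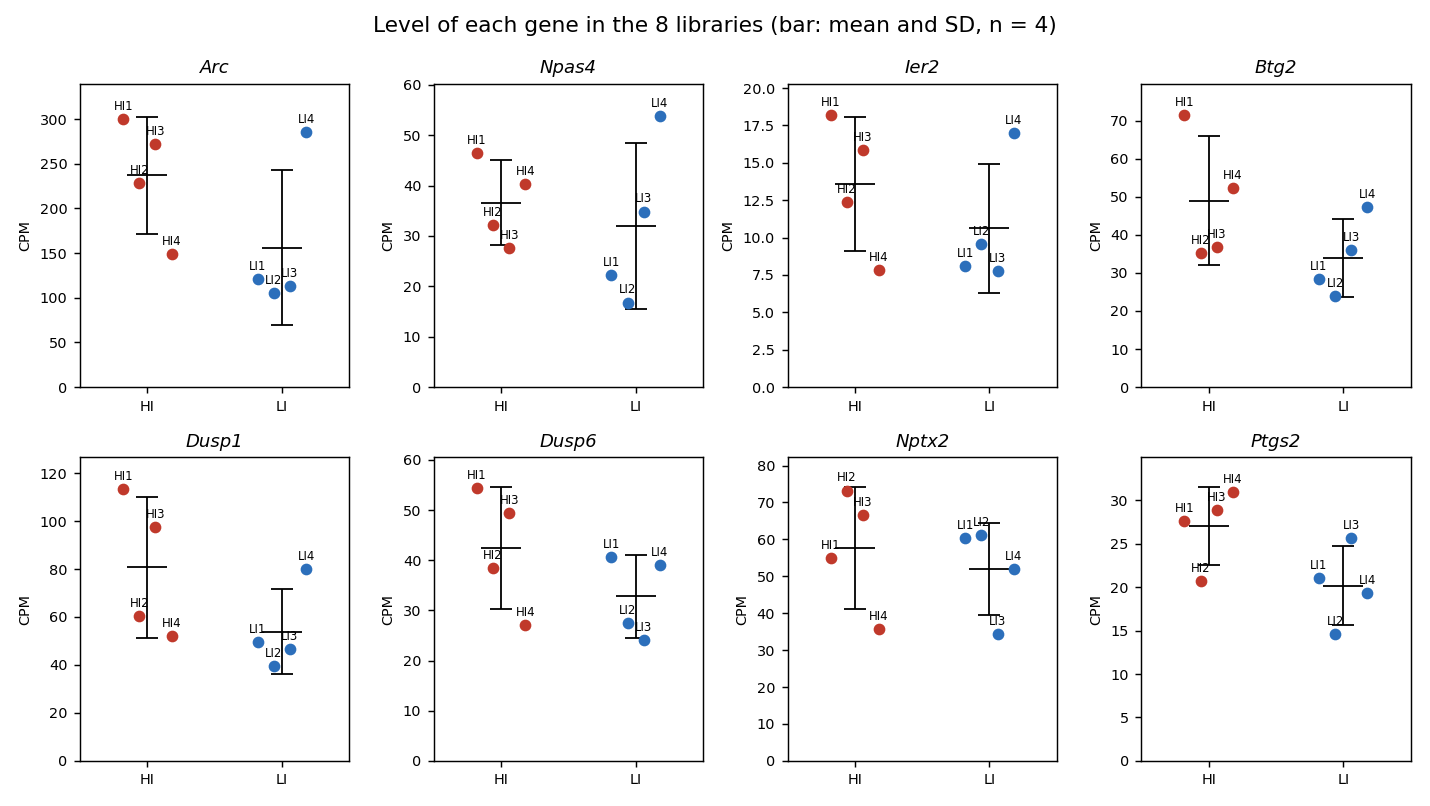
Level of each of the 8 genes in CPM (vertical axes, each from 0) in the 4 HI and 4 LI libraries, with the mean and SD of each group as bars. The groups overlap in all 8 genes, and LI4 is the highest LI library in 5 of them.

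**Figure D2:**
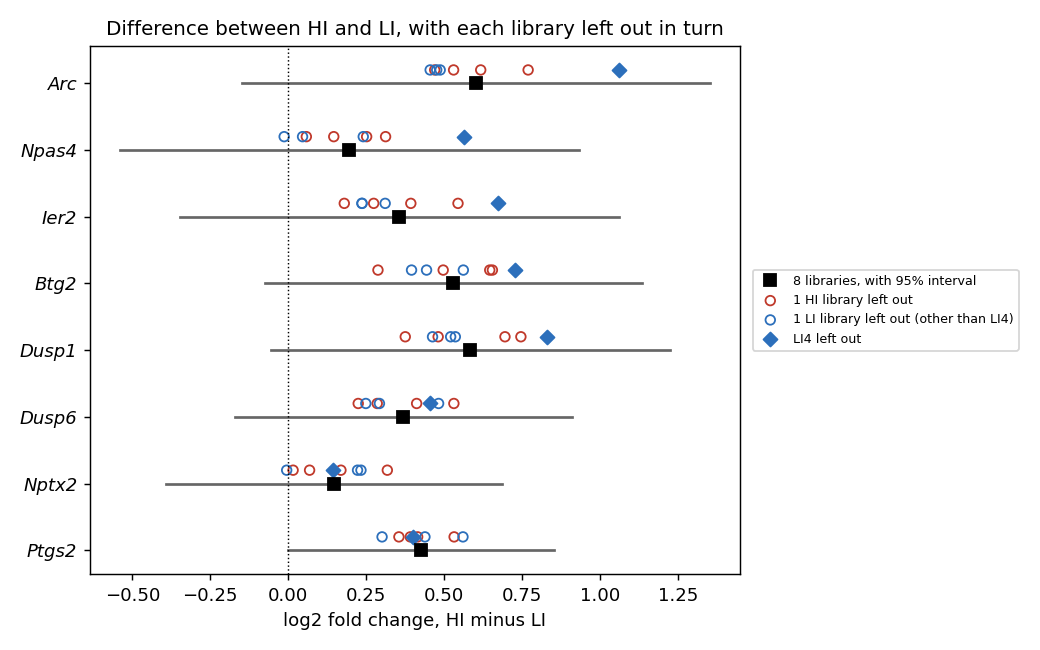
The log2 fold change, HI minus LI (horizontal axis), of each gene over 8 libraries (square, with its 95% interval) and with 1 library left out (circles, and a diamond for LI4). Every interval includes 0, and leaving out LI4 gives 1.06 for Arc against 0.60 with all libraries.

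Leaving out LI4 gave the highest log2 fold change of any single omission in Arc, Npas4, Ier2, Btg2 and Dusp1. LI4 was the highest LI library in each of these genes, so a rise on leaving it out was fixed in advance. Without LI4 the median of the 8 was 0.62, and 0 passed the adjusted threshold of edgeR's quasi-likelihood test. Without HI1 the median was 0.26. Without HI4 and LI3 together, the pair with the least ribosomal RNA, the median was 0.46 with 8 of 8 above 0.

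Some libraries were high or low in most of the 8 genes, though the order of libraries was not the same in every gene. HI1 was the highest HI library in 6 of the 8, all but Nptx2 and Ptgs2, and the highest of all 8 libraries in 5. LI4 was the highest LI library in 5, and in 7 of the 8 it exceeded at least the lowest HI library, Ptgs2 being the exception. LI2 was the lowest LI library in 5 (Arc, Npas4, Btg2, Dusp1 and Ptgs2), and LI3 in the other 3. As the mean over the 8 genes of log2 CPM centred on each gene's mean, the libraries stood at 0.56, 0.08, 0.31 and -0.11 in HI1 to HI4, against -0.27, -0.52, -0.34 and 0.30 in LI1 to LI4.

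HI4 was low for some of the 8 genes and high for others. It was the lowest HI library for Arc, Ier2, Dusp1, Dusp6 and Nptx2, at -0.27 to -0.57 log2 units from each gene's mean. For Npas4, Btg2 and Ptgs2 it lay above the mean, at 0.32, 0.42 and 0.43. LI3 had a similar split, at -0.44 to -0.68 for the first 5 and at 0.11, -0.12 and 0.16 for the last 3. Whether the low ribosomal RNA content of these libraries had a part in this was not tested. The transcripts of the first 5 genes span 1523 to 3026 bases, and those of Npas4, Btg2 and Ptgs2 have 2460, 2519 and 1815 bases. Over all tested genes, centred log2 CPM had a slope on log2 transcript length of 0.132 in HI4, against -0.0835 to 0.00898 in the other libraries, and its part in the split was not tested.

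**Figure D3:**
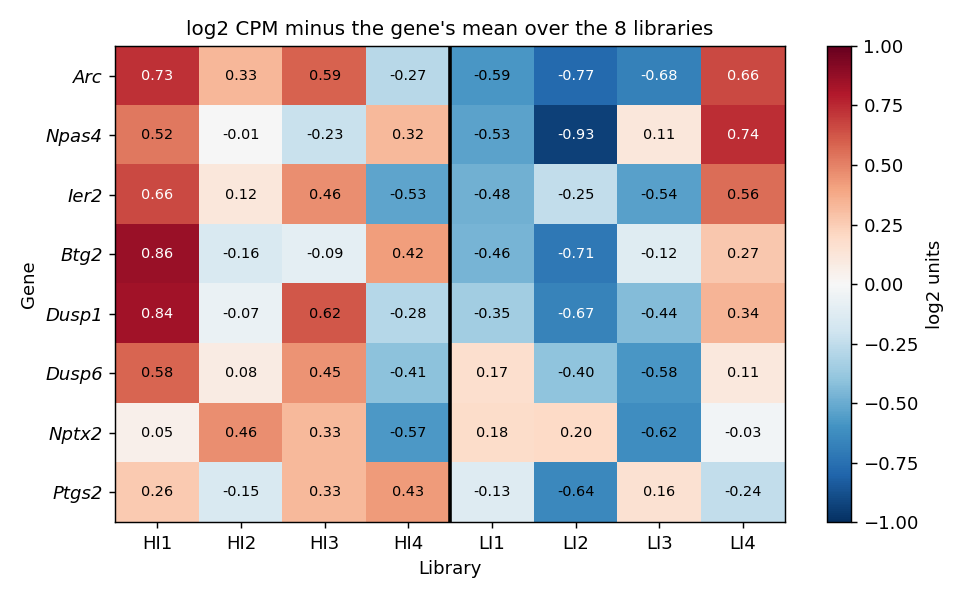
Each cell gives log2 CPM of a gene (rows) in a library (columns, HI left of the line and LI right of it) after subtracting that gene's own mean across libraries. HI1 and LI4 are mostly red (above the mean) and LI2 mostly blue (below it), while HI4 is blue for 5 genes and red for 3.

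Spread within the groups was wide for most of these genes. The coefficient of variation of CPM ran in HI between 16.6% (Ptgs2) and 36.4% (Dusp1), and in LI between 22.5% (Ptgs2) and 55.4% (Arc). The median over all tested genes was 19.4% in HI and 16.5% in LI, which 7 of the 8 genes exceeded in HI and 8 of the 8 in LI. The SE of the log2 fold change had a median of 0.28 for the 8 genes against 0.19 for all tested genes.

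Levels per transcript length were ordered by the deposited TPM. Over all 8 libraries Arc averaged 137 ± 58.6 TPM, Dusp1 75.5 ± 30.7, Nptx2 62.0 ± 14.9, Btg2 35.1 ± 13.5, Npas4 29.7 ± 11.03, Dusp6 28.8 ± 8.46, Ptgs2 28.2 ± 6.86 and Ier2 17.5 ± 6.45 TPM (SD, n = 8). Arc exceeded Dusp1 in 8 of 8 libraries, by 0.83 ± 0.24 log2 units of TPM (SD). Nptx2 exceeded Btg2 in 7 of 8, by 0.86 ± 0.74, and Ptgs2 exceeded Ier2 in 7 of 8, by 0.74 ± 0.62. The other neighbours in this order differed by no more than the spread of their gap between libraries. Dusp1 exceeded Nptx2 in 5 of 8 libraries (0.23 ± 0.57), and Btg2 exceeded Npas4 in 7 of 8 (0.25 ± 0.27). Npas4 exceeded Dusp6 in 3 of 8 (0.00279 ± 0.62), and Dusp6 exceeded Ptgs2 in 6 of 8 (0.02 ± 0.50). By group, Arc had 165 ± 46.8 TPM in HI libraries, against 109 ± 61.1 TPM in LI libraries, and Ptgs2 had 32.4 ± 6.25 TPM in HI libraries, against 24.0 ± 4.94 TPM in LI libraries (SD, n = 4 per group). The scaling of TPM includes ribosomal RNA, which took 25.5% of the counts in HI2 and so lowers the TPM of other genes there.

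Other activity-induced genes mostly had log2 fold changes above 0 too, but none passed the adjusted threshold of edgeR's quasi-likelihood test. Of 13 activity-induced transcription factor genes tested, 13 had a log2 fold change above 0, with a median of 0.52. Those with the smallest unadjusted p were Egr2, a zinc finger factor, at 1.09 ± 0.40 (SE), and the orphan nuclear receptor genes Nr4a3 at 0.56 ± 0.23 and Nr4a1 at 0.66 ± 0.28. Of 25 other effector genes, 19 were above 0 and 6 below, with a median of 0.24 and a range of -0.13 to 1.12. Cyr61, a secreted matrix protein, differed by 1.12 ± 0.39, the kinase gene Sik1 by 0.85 ± 0.31 and the pseudokinase gene Trib1 by 0.66 ± 0.26. Cyr61 averaged 3.83 ± 0.93 CPM over the HI libraries, against 1.77 ± 0.96 CPM over the LI libraries (SD, n = 4 per group). In Cyr61 alone of these 2 lists every HI library lay above every LI library, against 2.31% of all genes tested. These lists overlap with lists already seen to be higher in HI in these data.

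Lists of genes around Dusp1 and Dusp6 had medians closer to 0, and 0 of their genes passed the adjusted threshold of edgeR's quasi-likelihood test. Of 9 other DUSP phosphatase genes, 6 were above 0 and 3 below, with a median of 0.11. Dusp4, a nuclear phosphatase of the same family, differed by 0.62 ± 0.28 (SE), Dusp16 by 0.41 ± 0.25 and Dusp8 by 0.23 ± 0.15. Of 19 genes of the ERK cascade and its other inhibitors, 12 were above 0 and 7 below, with a median of 0.06. Spred1, which restrains Ras signalling, averaged 41.8 ± 4.14 CPM over the HI libraries, against 30.8 ± 4.40 CPM over the LI libraries (SD, n = 4 per group). In Spred1 alone of the 19 every HI library lay above every LI library, against 2.31% of all genes tested. The log2 fold change of Spred1 was 0.44 ± 0.14 (SE), and that of the ribosomal S6 kinase gene Rps6ka2 was 0.32 ± 0.17. Among 10 genes for CREB, SRF and MEF2 transcription, 9 were above 0, with a median of 0.16. This list had 15 genes, of which Crtc3, Ep300, Mkl1, Mkl2 and Mef2c had no entry under those symbols. Braf of the ERK list had none either. Creb1 differed by 0.38 ± 0.21, the CREB coactivator gene Crtc1 by 0.21 ± 0.14 and Arnt2, a partner of NPAS4, by 0.16 ± 0.11.

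Genes that act with the products of Arc, Nptx2, Btg2 and Ptgs2 went in both directions, and 0 of them passed that threshold. Of 7 genes for proteins that Arc is known to bind or act with, 7 had a log2 fold change below 0, between -0.20 and -0.03, with a median of -0.13, and of -0.05 without HI4. They included the endophilin gene Sh3gl3 at -0.15 ± 0.13 (SE), the dynamin gene Dnm2 at -0.16 ± 0.15 and Cacng2, an AMPA receptor auxiliary subunit, at -0.20 ± 0.21. Of 6 genes for other pentraxins and AMPA receptor subunits, 6 were above 0, with a median of 0.16, Gria1 at 0.27 ± 0.14, Nptx1 at 0.22 ± 0.14 and Gria3 at 0.17 ± 0.23. Gria3 was at -0.09 without HI4. Of 12 BTG/TOB and CCR4-NOT genes, 6 were above 0 and 6 below, with a median of 0.02, Btg1 at -0.31 ± 0.14, the scaffold gene Cnot1 at 0.23 ± 0.13 and the deadenylase gene Cnot6l at 0.27 ± 0.24. Cnot6l was at -0.02 without HI4.

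Of 9 prostaglandin genes tested, 5 were above 0 and 4 below, with a median of 0.00408. The thromboxane synthase gene Tbxas1 averaged 1.27 ± 0.24 CPM over the HI libraries, against 2.001 ± 0.38 CPM over the LI libraries (SD, n = 4 per group). Tbxas1 differed by -0.66 ± 0.29 (SE), and every HI library lay below every LI library, on 111 reads in all. The share of all tested genes with that order was not counted. The constitutive cyclooxygenase gene Ptgs1 differed by -0.19 ± 0.19. Ptgds, the prostaglandin D synthase gene expressed in meninges and oligodendrocytes, differed by 1.67 ± 0.87, and by 0.48 without HI1. The terminal prostaglandin E synthase gene Ptges and the receptor genes Ptger2, Ptger3 and Ptger4 did not pass the low-count filter.

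**Figure D4:**
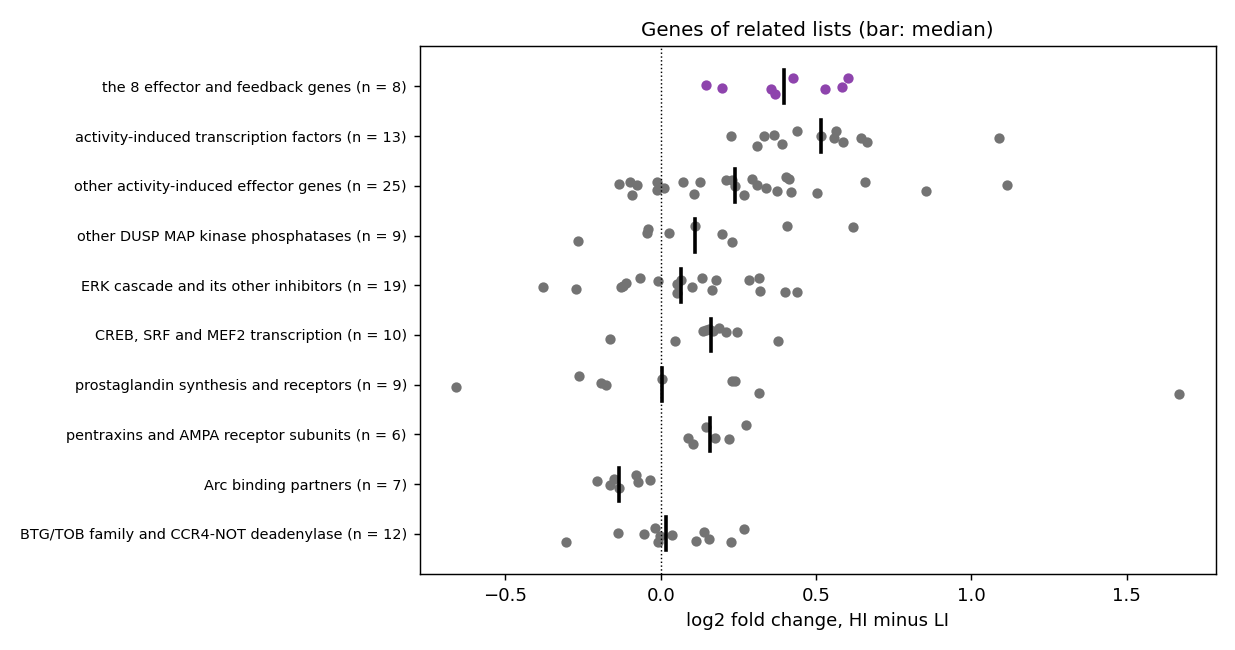
The log2 fold change, HI minus LI (horizontal axis), of each tested gene of the related lists (rows), with the median of each list as a bar. The 8 effector and feedback genes (top row, median 0.40) and the activity-induced transcription factors (median 0.52) lie to the right of 0, and the Arc binding partners (median -0.13) to its left.

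Markers of other cell types also differed between libraries. All 4 tested meningeal fibroblast markers of 5 listed (Col1a1, Col1a2, Dcn and Igf2, while Lum was filtered out) had log2 fold changes above 0, with a median of 1.67, and 0 of the 5 were at 0 in every library. Their summed level was 858, 217, 155 and 69.1 CPM in HI1 to HI4, against 29.7, 155, 40.5 and 196 CPM in LI1 to LI4. HI1 and LI4, the libraries with the highest means over the 8 genes in their own groups, were also the highest of their groups in these markers. LI2, which had the lowest mean over the 8 genes, stood at 155 CPM in these markers, as did HI3. Without HI1 the median of the 8 genes was 0.26 with 8 of 8 above 0, and without LI4 it was 0.62 with 8 of 8 above 0. The part of these markers in the result was not tested. Of 5 endothelial and pericyte markers 4 were above 0, and they summed to 91.4 to 166 CPM in HI and 89.8 to 136 CPM in LI, and their part in the result was not tested. Of 5 oligodendrocyte markers 5 were below 0, with a median of -0.69. Of 5 striatal neuron markers 5 were below 0, with a median of -0.61, and they summed to 258 to 304 CPM in HI, against 642 CPM in LI2 and 253 to 283 CPM in the other LI libraries. Without LI2, the library highest in both lists, 7 of the 8 genes were above 0 and the median was 0.31. Of 6 interneuron markers 5 were below 0, with a median of -0.21, and they summed to 594 to 686 CPM in HI and 673 to 885 CPM in LI. Blood cell markers (3 of 4 tested above 0, median 0.41) summed to 144 to 464 CPM in HI and 149 to 263 CPM in LI, with HI1 highest. Microglia and macrophage markers (4 of 5 below 0, median -0.15) summed to 162 to 192 CPM in HI and 187 to 201 CPM in LI. The exception, Mrc1, differed by 1.79 ± 0.63 (SE). Mrc1 averaged 5.12 ± 4.70 CPM over the HI libraries, against 1.47 ± 0.89 CPM over the LI libraries (SD, n = 4 per group). Astrocyte markers (3 of 5 below 0, median -0.00649) summed to 1840 to 2506 CPM in HI and 1907 to 2434 CPM in LI. The part of these lists in the result was not tested either.

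The genes outside the 8 whose log2 CPM followed the mean of the 8 most closely over the 8 libraries were Nr4a1 (Pearson r = 0.98), Fos (0.96), Otof (0.94), Myl9 (0.94), Trib1 (0.92) and Tnnt2 (0.92). These r values only rank likeness, over libraries that share the split into HI and LI, and carry no test. Fos, Nr4a1 and Trib1 are activity-induced genes. Otof encodes the calcium sensor otoferlin, Myl9 a myosin light chain of smooth muscle, and Tnnt2 cardiac troponin T. Tnnt2 stood at 15.2, 5.12, 6.05 and 1.33 CPM in HI1 to HI4, against 1.87, 1.64, 1.15 and 5.34 CPM in LI1 to LI4. Its log2 fold change of 1.46 ± 0.67 (SE) was 0.72 without HI1, and that of Myl9, 0.36 ± 0.26, was 0.10 without HI1.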

How the data were processed

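Each of 8 libraries (4 HI, 4 LI) had 1 deposited table. The authors' expected counts (estimated reads per gene, of which 10.8% to 11.4% per library were not whole) were rounded. The deposited TPM values, scaled by the authors over all listed genes including ribosomal RNA, gave levels per length. The submitters' processing notes name Bowtie2 2.1.0. The sources used here do not give the read counter, the build or the use of strand, so overlapping and antisense genes cannot be told apart. Libraries were TMM-scaled in edgeR 4.0.16 (R 4.3.3), filtered with filterByExpr (minimum count 10, minimum total 15), and HI was compared with LI by the quasi-likelihood test over 11631 genes with Benjamini-Hochberg adjustment and a threshold of 0.1, the alpha of the series' design text. The Fisher's exact test named there, DESeq2 1.42.0 and limma 3.58.1 were alternatives. The SE is the absolute log2 fold change over the square root of F. Log2 CPM used a prior count of 2. Intervals are 95%.

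The 8 genes and the gene lists were chosen with earlier results of these data known. From each related list the text names up to 3 genes with the smallest unadjusted p (1 such gene is not reported here), and it names the 6 genes most like the mean of the 8. No 2 libraries of a group agreed within sampling noise (chi-square per degree of freedom of at least 14.4).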

Additional observations from a re-analysis of the deposited data

Results flagged for a closer look

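In Arc, LI4 at 286 CPM lay apart from the other 3 LI libraries by more than Dixon's 95% critical value for 4 samples, its gap on the log2 scale being 0.868 of the range of the LI group. HI and LI were each examined in the 8 genes, and chance alone marks about 1 in 20 groups.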

How the results depend on the processing

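The count of 0 genes called among all genes and among the 8 held under median-ratio size factors, without ribosomal RNA rows, under either other filter, with limma-voom, with limma on log2(TPM + 1) and log2(TPM + 0.1), with a covariate for ribosomal RNA share and without each library. DESeq2 called 38 genes, 0 of them among the 8. Fisher's exact test on summed counts, which ignores the spread between libraries, called 6596 genes and 6 of the 8 (all but Npas4 and Nptx2), with a median log2 fold change over all genes of -0.11. The number of the 8 with a log2 fold change above 0 was 7 or 8 throughout. The number of the 8 higher in HI at an unadjusted p under 0.05 was less stable. It stayed 0 in 11 of the other settings and was above 0 in 9, Fisher's exact test among them. Leaving out 1 library turned the sign of Npas4 (from -0.0128 without LI2 to 0.57 without LI4), Nptx2 (from -0.00475 without LI3 to 0.32 without HI4), Cnot6l (from -0.0244 without HI4 to 0.40 without HI2) and Gria3 (from -0.0876 without HI4 to 0.31 without LI3), and the covariate turned Nptx2 to -0.0363; the cause was not tested. With the replicate block 0 genes were called and the median of the 8 was 0.41. Same-numbered libraries deviated from their group means with correlations of 0.22, 0.54, -0.05 and 0.06, so the numbers were not taken to pair them. The 8 genes had 59 to 2898 reads per library, and the parts of counting error and of spread between libraries in the intervals were not separated.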
